A study of Mus musculus with 6 samples.

Results

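The regions described here are the 746 promoter regions that the combined GATA6 list of mouse XEN cells held and the combined GATA4 list did not. XEN cells are self-renewing cells with the identity of primitive endoderm, the source of the yolk sac endoderm, and CUT&RUN uses an antibody to bring a nuclease to a bound protein, so that the DNA fragments released beside it can be sequenced. The 6 libraries, 3 for GATA4 and 3 for GATA6, came from XEN cells to which the labels give the genotype 3F2, a line whose donor mice carried Oct4-GFP, R26 M2rtTA and Col1a1 TetO-OKSmCh alleles, with 500000 cells per reaction. All 6 libraries shared these alleles, no treatment differed between them, and 1 line with no line lacking either factor limits the libraries as a model. The labels give no separate cultures, so the spread between libraries may be technical.

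A region was called when its stacked fragments stood among the strongest blocks of signal in 1 library, and a combined list kept only what was called in all 3 libraries of a factor. The members were chosen by these measured calls. Of 5170 combined GATA6 regions, 1432 overlapped no region of the 8282 in the combined GATA4 list. Of these, 746 had a midpoint no farther than 1 kb from a transcription start site (TSS) of the annotation and 686 did not. Other promoter classes serve for comparison, namely 2056 combined GATA6 promoter regions that overlapped the GATA4 list and 1972 promoter regions of the GATA4 list alone. Absence from the combined GATA4 list was therefore a property of lists, and 692 of the 746 members were in fact called in at least 1 GATA4 library.

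GATA4 and GATA6 are zinc finger transcription factors that specify and maintain the primitive endoderm. Both recognise the same short DNA word, WGATAR, that is GATAA or GATAG preceded by A or T, on either strand. Many mammalian promoters lie instead in stretches rich in G, C and the CpG dinucleotide, where factors of the SP/KLF, ETS, NFY and NRF1 families bind and transcription can start in both directions.

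The sequences of 5 members with WGATAR are shown because they carry the word that both factors read, and were those with the highest GATA6 signal among the 96 members that had it within 100 bp of the midpoint. Each is the 201 bases centred on the midpoint, from the plus strand of mm10, with the word in capitals as it reads on that strand.
Zbtb41, chr1:139421885-139422085: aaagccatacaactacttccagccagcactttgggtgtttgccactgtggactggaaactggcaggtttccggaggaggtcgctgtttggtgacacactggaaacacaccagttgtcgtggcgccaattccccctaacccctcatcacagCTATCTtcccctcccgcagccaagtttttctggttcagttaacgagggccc
Dhrs1, chr14:55745516-55745716: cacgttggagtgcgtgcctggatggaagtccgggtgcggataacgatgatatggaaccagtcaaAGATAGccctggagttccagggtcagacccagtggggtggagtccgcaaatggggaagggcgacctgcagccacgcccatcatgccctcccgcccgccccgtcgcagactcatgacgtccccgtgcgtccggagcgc
Oas1c, chr5:120812546-120812746: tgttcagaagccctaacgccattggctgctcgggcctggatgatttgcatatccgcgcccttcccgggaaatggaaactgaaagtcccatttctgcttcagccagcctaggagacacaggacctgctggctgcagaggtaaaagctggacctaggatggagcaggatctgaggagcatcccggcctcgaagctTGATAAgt
Cd46, chr1:195092146-195092346: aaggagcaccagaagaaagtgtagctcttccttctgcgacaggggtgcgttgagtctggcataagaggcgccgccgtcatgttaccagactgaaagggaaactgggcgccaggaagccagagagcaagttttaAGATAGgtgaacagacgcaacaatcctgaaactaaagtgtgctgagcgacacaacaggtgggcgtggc
AC112949.1, chr17:73251421-73251621: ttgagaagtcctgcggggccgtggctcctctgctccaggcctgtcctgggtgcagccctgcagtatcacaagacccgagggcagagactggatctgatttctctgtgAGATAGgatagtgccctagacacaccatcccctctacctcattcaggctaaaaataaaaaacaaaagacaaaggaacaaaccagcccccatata

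The Zbtb41 window carried the word as CTATCT, the reverse complement of AGATAG, and the other windows carried it in the forward reading. Zbtb41 encodes a zinc finger protein, Dhrs1 a short-chain dehydrogenase, Oas1c a member of the oligoadenylate synthetase family of antiviral enzymes and Cd46 a complement regulator, whereas AC112949.1 is a lncRNA. The midpoints lay 303 bp upstream of the TSS for Zbtb41, 17 bp upstream for Dhrs1, 132 bp upstream for Oas1c, 3 bp downstream for Cd46 and 535 bp downstream for AC112949.1.

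The sequences of the 3 members that ranked highest by GATA6 signal and lacked the word within 100 bp of the midpoint show the more common case, in the same format. Outside this window, the called regions at Mgst3 and Rpp14 did hold the word, and the one at 1810012K16Rik did not.
Mgst3, chr1:167393701-167393901: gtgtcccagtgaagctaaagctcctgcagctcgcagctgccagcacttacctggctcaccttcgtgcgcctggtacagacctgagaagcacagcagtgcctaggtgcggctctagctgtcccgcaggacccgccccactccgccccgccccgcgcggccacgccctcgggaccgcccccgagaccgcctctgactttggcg
Rpp14, chr14:8080363-8080563: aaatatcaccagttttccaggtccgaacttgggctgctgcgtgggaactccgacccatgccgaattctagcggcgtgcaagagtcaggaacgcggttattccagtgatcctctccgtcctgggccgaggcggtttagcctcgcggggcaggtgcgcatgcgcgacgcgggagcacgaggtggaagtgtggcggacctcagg
1810012K16Rik, chr8:22398619-22398819: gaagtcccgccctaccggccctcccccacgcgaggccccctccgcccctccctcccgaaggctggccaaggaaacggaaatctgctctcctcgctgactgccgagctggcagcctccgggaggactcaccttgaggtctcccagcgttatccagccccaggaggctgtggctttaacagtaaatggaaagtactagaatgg

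The Mgst3 region lay at chr1:167392974-167394627, with its midpoint 40 bp downstream of the TSS in the UTR of this gene for a microsomal glutathione transferase. The Rpp14 region lay at chr14:8079824-8081101, with its midpoint 96 bp into the gene for an RNase P subunit. The 1810012K16Rik region lay at chr8:22398311-22399126 and covered the TSS of this lncRNA, with its midpoint 2 bp upstream. A TSS of Slc25a15, the mitochondrial ornithine carrier gene on the opposite strand, lay within 1 kb of that TSS. The 501-bp windows at these 3 midpoints had GC contents of 56.5%, 62.5% and 62.1%.

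Most members were present in part of the GATA4 data. Of the 746 regions, 54 (7.24%, exact 95% binomial interval 5.48 to 9.34) overlapped no region of any GATA4 library list. A further 174 (23.3%) were held by 1 GATA4 list, 510 (68.4%, 64.9 to 71.7) by 2 and 8 (1.07%) by all 3. For these last 8 regions, the GATA4 intervals did not overlap into a combined region. They were the promoters of Mgst3, Xpr1, Fech, 2200002D01Rik, Trmt1, Zfp46, Actr1b and Ebpl. All intervals over regions cover counting error only.

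No single GATA4 library accounted for the absence. GATA4 replicates 1, 2 and 3 held 433, 404 and 381 members, with a mean of 406.0 ± 26.1 regions (SD, n = 3), or 54.4% ± 3.49 of the members. Among the 510 members held by 2 lists, replicate 3 was the one missing at 195, replicate 2 at 168 and replicate 1 at 147. Of all 5170 combined GATA6 regions, 86.9% were held by GATA4 replicate 1, 85.9% by replicate 2 and 85.1% by replicate 3. The members' lower shares follow from how they were chosen and are given without a test.

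**Figure D1:**
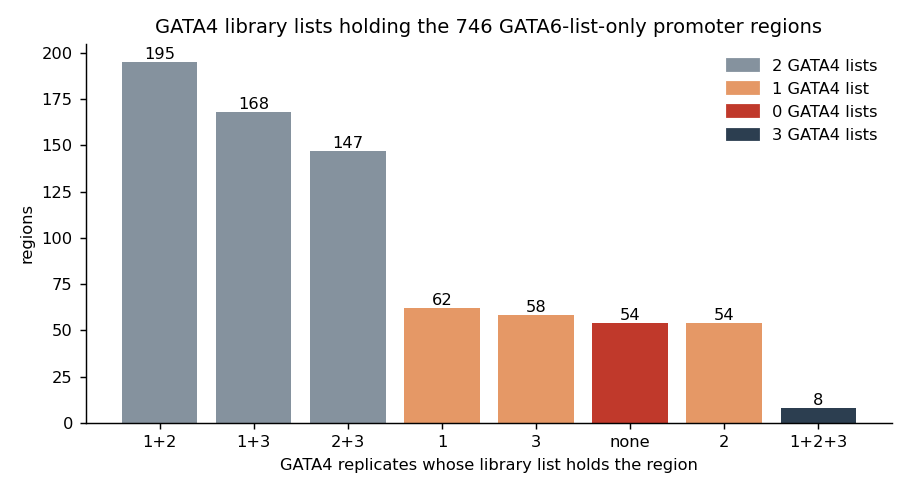
Number of members (y axis) by the GATA4 replicates whose library list held the region (x axis), coloured by the number of lists. The 3 tallest bars, of 195, 168 and 147 regions, are members called in all but 1 GATA4 library, and 54 members were called in none.

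The number of members depended on which libraries were required. When 1 GATA6 library was left out and the remaining libraries were enough, the number was 1309 without replicate 1, 1422 without replicate 2 and 1254 without replicate 3. With 1 GATA4 library left out it was 611, 584 and 561, and the share in no remaining GATA4 list rose from 7.24% to between 18.7% and 20.1%. The direction of these changes is set by the rule, since fewer libraries then have to hold or to lack a region.

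Regions of the other exclusive classes were also mostly held by part of the other factor's libraries. Of the 1972 GATA4-list-only promoter regions, 227 (11.5%, 10.1 to 13.0) were held by no GATA6 library and 1155 (58.6%) by at least 2. Of the 686 GATA6-list-only regions away from promoters, 132 (19.2%, 16.4 to 22.4) were held by no GATA4 library and 369 (53.8%) by at least 2. Among the promoter members, 518 (69.4%, 66 to 72.7) were held by at least 2.

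The members rested on modest numbers of fragments. Over the members, the maximum signal, the deepest stack of fragments within a region, had a median of 7 in GATA6 replicate 1, 6 in replicate 2 and 7 in replicate 3, with ranges of 3 to 17, 2 to 16 and 2 to 21. It was 4 over all regions of each library. In GATA6 replicate 2, 277 members (37.1%) had a maximum of 5 fragments or fewer, against 188 (25.2%) in replicate 1 and 204 (27.4%) in replicate 3. In the GATA4 libraries that held them, the members' median maximum was 7, 6 and 7. Signal was not scaled for depth and the reads left in each library are unknown, so these values were not tested between factors, and maxima of both factors at single regions below are given side by side only.

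Signal was ranked within each list instead, as the percentile of a region's total signal (fragment stack summed over its bases) among all regions of that library. The members' median percentile was 81.3, 78.3 and 79.7 in GATA6 replicates 1, 2 and 3, and that of promoter regions in both lists was 92.9, 92.0 and 92.7. In the GATA4 lists, where held, the members' medians were 80.7, 79.9 and 78.7, and those of the regions in both lists 93.4, 92.7 and 93.2. The members' medians stood above the middle of every list and below those of the promoters held by both. These classes were made from the same signal calls, and GATA4 ranks exist only for members that were called there, so this order follows in part from the rule and is a description. A single member moved widely between libraries, with a median gap of 34.5 percentile points between its highest and lowest GATA6 library.

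**Figure D2:**
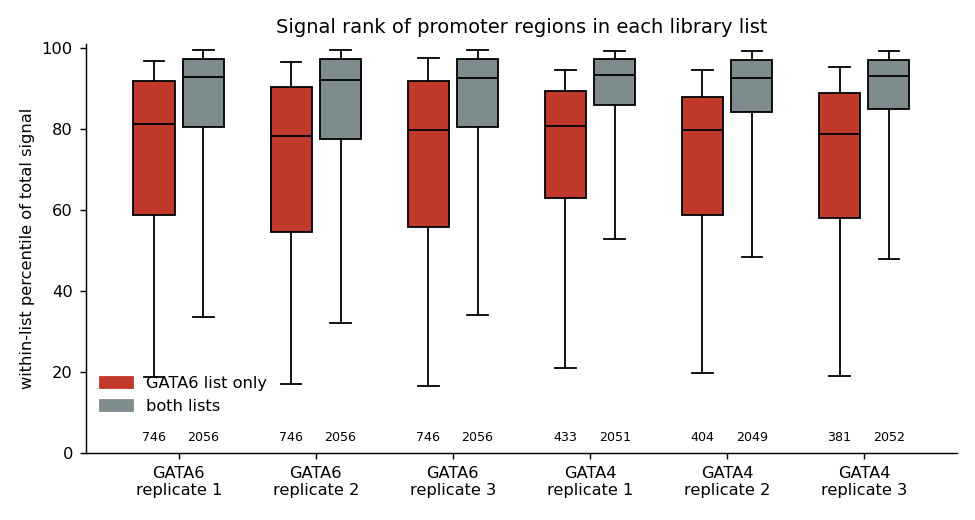
Within-list percentile of total signal (y axis) in each of the 6 libraries (x axis) for GATA6-list-only promoter regions (red) and promoter regions in both combined lists (grey). Boxes span the quartiles with the median as a line, whiskers run from percentile 5 to 95 of the regions shown, and the printed numbers count the regions held. Red medians lie between 78.3 and 81.3 and grey ones between 92.0 and 93.4.

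The strongest members are given by library. The Mgst3 promoter had maxima of 14, 16 and 16 fragments in GATA6 replicates 1, 2 and 3 and of 18, 12 and 5 in the GATA4 replicates. GATA4 replicate 3 was the low library among the 3 for GATA4, and the 3 for GATA6 were close together. The Rpp14 promoter had maxima of 8, 12 and 13 for GATA6, and of 8 and 6 in GATA4 replicates 2 and 3, with no call in replicate 1. The Fchsd1 promoter, at a gene for an F-BAR domain protein on chromosome 18, had maxima of 17, 15 and 15 for GATA6, and was called with 10 fragments in GATA4 replicate 3 only.

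The remaining members among the 12 with the highest mean GATA6 percentile lay at genes of varied function. They were Uqcc2 (assembly of respiratory complex III), Atg10 (autophagy), Zfp94 and Hivep3 (zinc finger proteins), Pgpep1 (a peptidase), Rab18 (a small GTPase), Tipin (replication fork protection), Zbtb41 and the 1810012K16Rik and Slc25a15 pair. Tipin had maxima of 16, 9 and 10 for GATA6 and of 7 in GATA4 replicates 1 and 2. Of these 12 members, 1 was held by 3 GATA4 lists, 9 by 2 and 2 by 1.

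The 54 members without any GATA4 call ranked lower. Their median mean GATA6 percentile was 62.0, compared with 66.8 for members in 1 GATA4 list, 74.8 for those in 2 and 81.9 for the 8 in all 3. When members were split into 3 equal parts by percentile, 10 of 249 in the highest part (4.02%) were in no GATA4 list, and in the lowest part 31 of 248 (12.5%). Both the GATA4 calls and the GATA6 ranks are signal calls behind the rule, so no test was made.

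The member without a GATA4 call that ranked highest was the promoter of Rpl36, a protein of the large ribosomal subunit, at chr17:56613053-56613596. It had maxima of 7, 11 and 11 fragments in GATA6 replicates 1, 2 and 3 and was not called in any GATA4 library, although a combined GATA4 region lay 473 bp away. Snhg6, a snoRNA host lncRNA on chromosome 1, had maxima of 11, 12 and 8, and Nfe2l3, a CNC family transcription factor on chromosome 6, had 9, 16 and 8. In each case all 3 GATA6 libraries lay above the list-wide median of 4, and GATA4 gave no value. A missing call says only that the signal stayed under the library's threshold.

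Zfp106, a zinc finger RNA-binding protein gene on chromosome 2, was the highest-ranking member with WGATAR near the midpoint and no GATA4 call, with maxima of 9, 9 and 10. Gm43391, a lncRNA gene with maxima of 5, 5 and 5, also had the word there. The others of the 12 highest-ranking members with no GATA4 call had no WGATAR in that window, namely the promoters of Srp19 (signal recognition particle; 6, 5 and 6), Dagla (endocannabinoid synthesis; 5, 4 and 4), Inppl1 (the phosphatase SHIP2; 5, 4 and 6), Disp2 (10, 7 and 12), Tll2 (5, 7 and 9), 3830406C13Rik (8, 6 and 7) and the lncRNA Gm16755 (8, 10 and 11), together with Rpl36, Snhg6 and Nfe2l3. Several of these had stacks close to the list-wide median. Gm16755 was the exception to a position at the TSS, with its midpoint 896 bp upstream.

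At the other end, the members with the lowest mean percentiles were at Kif5b (a kinesin heavy chain, chromosome 18), Wwc2 (chromosome 8) and Incenp (the inner centromere protein, chromosome 19). Their maxima in GATA6 replicates 1, 2 and 3 were 5, 3 and 6 at Kif5b, 4, 5 and 4 at Wwc2 and 5, 2 and 3 at Incenp. Such members passed the call in all 3 libraries with a few stacked fragments.

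The members sat on the TSS. The midpoint was a median of 78.5 bp from the nearest TSS (99 bp for promoters in both lists and 100 bp for GATA4-list-only promoters). That TSS was covered by 684 of 746 regions (91.7%), as by 92.6% of promoters in both lists and 88.5% of GATA4-list-only promoters. Of the members, 421 (56.4%, 52.8 to 60) had the midpoint within 100 bp of the TSS, against 50.4% of promoters in both lists and 50.2% of GATA4-list-only promoters. Their absolute distance was used by the rule, so this is a description. The midpoint fell outside genes for 297 members (39.8%), in a UTR for 189, an intron for 166, a noncoding exon for 49 and a coding exon for 45. It fell outside genes for 43.8% of promoters in both lists and 41.8% of GATA4-list-only promoters.

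Direction relative to the TSS was not used by the rule, and no difference between the classes passed the threshold in the main comparison. The midpoint lay upstream for 488 members (65.4%), 68.1% of promoters in both lists and 67.9% of GATA4-list-only promoters. The differences were -2.68 points (95% interval -6.69 to 1.23) and -2.49 points (-6.52 to 1.45), each with adjusted p = 0.260 in Fisher's exact test. The first passed the threshold without GATA6 replicate 1 or 2 (-5.04 and -6.97 points) and with calls in 2 of 3 libraries (-7.20 points). The second passed it without GATA6 replicate 2 (-4.37 points) and with library lists of equal length (-4.31 points).

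Just inside the 1 kb limit lay the Gm17382 region (974 bp, GATA6 maxima 4, 7 and 7) and the Abcc2 region (968 bp, 6, 2 and 2). Just outside lay the Tcf23 region (1006 bp, 4, 8 and 6) and the Smim27 region (1012 bp, 7, 3 and 7). At the other limit of the rule, the members closest to a combined GATA4 region were Shld2 (16 bp) and Pgpep1 (73 bp), and the smallest overlaps among the regions in both lists were 88 bp at Gm20594 and 163 bp at Oasl1.

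Few members had such a neighbour, which follows in part from the rule, since members overlap no combined GATA4 region. The counts are a description. A combined GATA4 region lay within 500 bp of 28 members (3.75%) and within 1000 bp of 39 (5.23%), and the median distance was 43488 bp. Members were narrower than the other promoter regions, with a median width of 602.5 bp (194 to 1954) against 725 bp for promoters in both lists and 689 bp for GATA4-list-only promoters. Width comes from the same calls as the classes, and a wider region overlaps another more readily, so this too is a description. The positions of maximum signal in the 3 GATA6 libraries lay within 200 bp of each other in 611 members (81.9%). Their median spread was 55 bp in members and 65 bp in promoters of both lists. It was 78 bp for GATA4-list-only promoters in the GATA4 libraries.

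**Figure D3:**
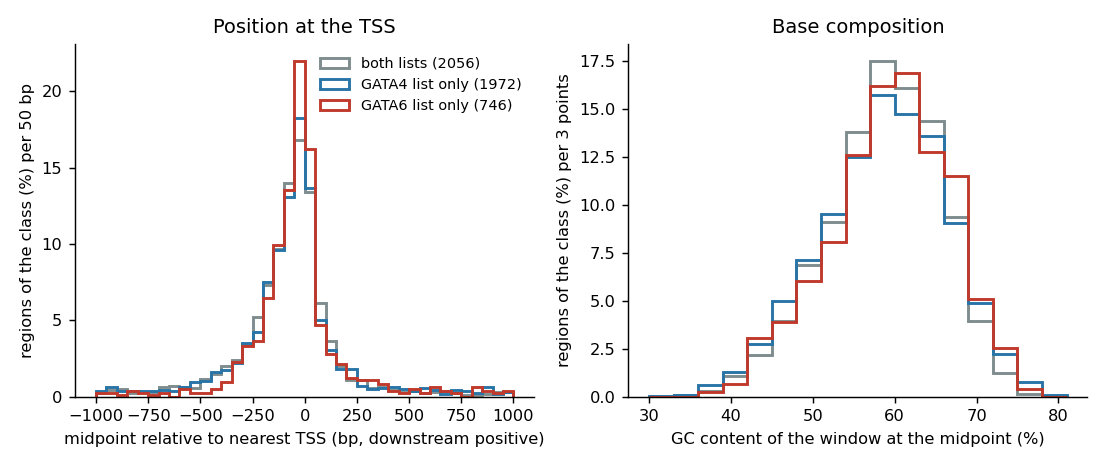
Left, signed distance of region midpoints from the nearest TSS (x axis, bp, downstream positive), as percent of each class per 50 bp (y axis). Right, GC content of the 501 bp at the midpoint (x axis, %), as percent of each class per 3 percentage points (y axis). Members (red, 746) peak at the TSS, and all 3 classes have median GC contents between 58.9% and 59.8%.

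The base composition of the members was that of CpG-rich promoters. A window counted as CpG-island-like when its 501 bp had a GC content over 50% and an observed to expected CpG ratio over 0.6. This held for 502 members (67.3%), against 40.7% of the 93459 annotated TSS positions of protein-coding genes, whose median GC content was 55.9%. Here and below, these positions include the starts of all transcripts, called or not, and their windows are centred on the TSS. Members are called regions with windows at the midpoint, so the 2 sets are not alike. The share was 69.7% for promoters in both lists (difference -2.41 points, -6.37 to 1.44; adjusted p = 0.260, Fisher's exact test) and 67.7% for GATA4-list-only promoters (-0.355 points, -4.36 to 3.53; adjusted p = 0.890). A difference from either class was thus not detected, but the first was -6.07, -6.69 and -6.09 points and passed the threshold without GATA6 replicate 1, 2 or 3 in turn, and -15.7 points when calls in 2 of 3 libraries sufficed for both factors.

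Within the members, the share of CpG-rich promoters differed with the number of GATA4 lists that held the region, as a description. CpG-island-like windows made up 27 of 54 members in no GATA4 list (50%, 36.1 to 63.9), 109 of 174 in 1 list (62.6%, 55 to 69.9) 361 of 510 in 2 lists (70.8%, 66.6 to 74.7) and 5 of 8 in all 3 (62.5%, 24.5 to 91.5). The share was thus higher from 0 to 2 lists, and the 8 members in all 3 lists had an interval too wide to place them. Of the 3 equal parts by GATA6 percentile, the highest had 71.9% and the lowest 63.3%, so signal rank moved with this series, and its part in it was not tested.

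The GATA word was less frequent in members than in either other class. It lay within 100 bp of the midpoint of 96 members (12.9%, 10.6 to 15.5), of 362 promoters in both lists (17.6%) and of 383 GATA4-list-only promoters (19.4%). The differences were -4.74 points (-7.53 to -1.70; adjusted p = 0.00437) and -6.55 points (-9.41 to -3.46; adjusted p = 1.58e-04, both Fisher's exact test, two-sided). Of all protein-coding TSS positions, 17.2% held the word in a window of the same length.

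The second difference kept its direction and stayed past the threshold under all 21 alternatives run. The first lost the call without GATA4 replicate 3 (-3.72 points, adjusted p = 0.0584), without GATA6 replicate 3 (-2.43, adjusted p = 0.0887) and with calls in 2 of 3 libraries (-0.887, adjusted p = 0.536; Fisher's exact test in each). The units of these tests were regions, not replicates.

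Base composition moved with the GATA word. In windows under 50% GC, the word was found in 38 of 98 members (38.8%, 29.1 to 49.2), 43.1% of promoters in both lists and 48.6% of GATA4-list-only promoters. Between 50% and 60% GC the shares were 33 of 221 members (14.9%, 10.5 to 20.3), 24.5% and 23.8%. Between 60% and 70% they were 6.69%, 6.54% and 9.78%, and from 70% upwards 3.54%, 4.52% and 2.92%. The shares of members and promoters in both lists were thus farthest apart between 50% and 60% GC and close together above, and members had more of their windows at 70% or above (15.2% against 9.68% and 12.2%). The part of GC content in the difference was not tested further.

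By the number of GATA4 lists holding a member, the word was present in 7 of 54 members in no GATA4 list (13.0%, 5.37 to 24.9), in 20 of 174 in 1 list (11.5%, 7.16 to 17.2), in 67 of 510 in 2 lists (13.1%, 10.3 to 16.4) and in 2 of 8 in all 3 (25%, 3.19 to 65.1), with intervals that overlapped. Over the whole width of the region, 305 members (40.9%) held the word at least once, against 50.3% and 49.3% in the wider regions of the other classes.

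Other promoter words were counted in the same windows, on both strands and as a description. No word searched contains another, although neighbouring words may share end letters. GGGCGG, the SP/KLF word, was found in 402 members (53.9%), 52.7% of promoters in both lists, 50.4% of GATA4-list-only promoters and 32.6% of all TSS positions. CCGGAAG, the ETS word, was found in 84 members (11.3%), 11.2%, 10.1% and 8.11% of the same classes. These words were thus about as frequent in members as in the other called promoters.

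CCAAT, the word of NFY, was found in 210 members (28.2%, 25 to 31.5), 35.9% of promoters in both lists, 36.6% of GATA4-list-only promoters and 23.8% of all TSS positions. GCGCATGC, the word of NRF1, a regulator of nuclear genes for mitochondrial proteins, was found in 40 members (5.36%, 3.86 to 7.23), 8.80%, 3.91% and 2.0% of the same classes. The members' interval for CCAAT lay below both other called classes, and that for GCGCATGC below the promoters in both lists. The cyclic AMP response word TGACGT was found in 7.91% of members and 5.60% of all TSS positions, and the E-box CACGTG in 7.64% and 4.76%. The AP-1 word TGANTCA was found in 3.89% of members and 4.12% of all TSS positions, the YY1 word AAGATGG in 3.08% and 5.33%, and the TATA box, searched as TATAAA, in 2.55% and 6.94%. For each of these words the members' interval held the shares of the promoters in both lists and of the GATA4-list-only promoters. The ZBTB33 word TCTCGCGA was found in 14 members (1.88%, 1.03 to 3.13), 1.02% of promoters in both lists, 1.67% of GATA4-list-only promoters and 0.856% of all TSS positions.

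**Figure D4:**
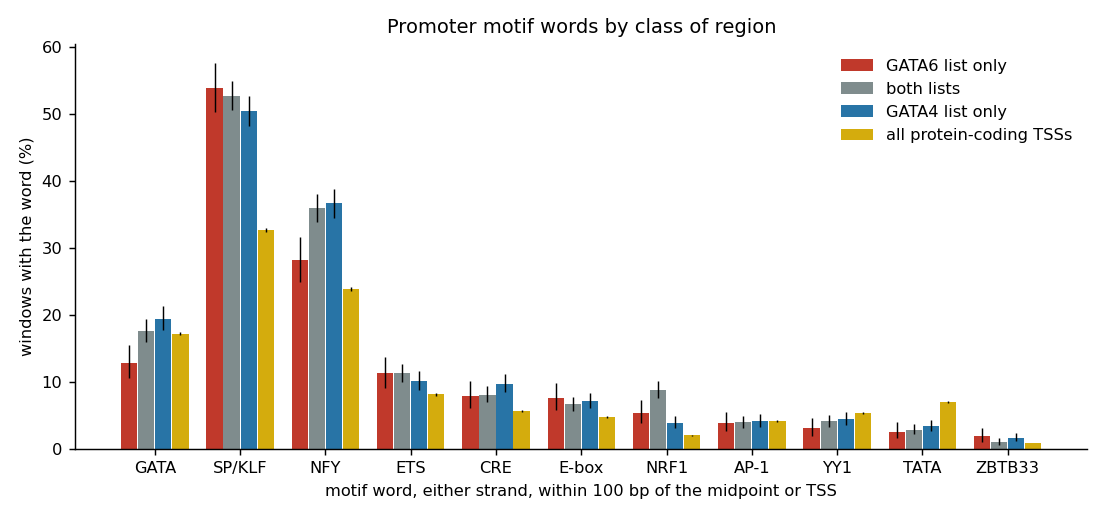
Percent of windows with each motif word (y axis) for members, promoter regions in both lists, GATA4-list-only promoter regions and all protein-coding TSS positions, with exact 95% binomial intervals as bars. Members stand lowest of the 3 called classes for the GATA word (12.9%) and for NFY (28.2%).

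Members were less often at promoters with a TSS of another gene on the opposite strand. Such a TSS lay within 1 kb of the nearest TSS for 135 members (18.1%), 531 promoters in both lists (25.8%) and 487 GATA4-list-only promoters (24.7%). The differences were -7.73 points (-11.0 to -4.27; adjusted p = 9.50e-05) and -6.60 points (-9.85 to -3.14; adjusted p = 5.67e-04, Fisher's exact test). Leaving out GATA4 replicate 1 ended the second call (-2.90 points, adjusted p = 0.164), as did calls in 2 of 3 libraries (-1.70 points, adjusted p = 0.302; Fisher's exact test in each).

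Named members at such paired promoters included Shld2 with Glud1 (glutamate dehydrogenase), Mrpl57 with Ska3, Psmb1 with Tbp (the TATA-binding protein), Cdk2 with Pmel, Eif2a with Serp1 and Polr1d with Lnx2. The Mrpl57 region had maxima of 5, 11 and 14 for GATA6 and of 13 and 14 in GATA4 replicates 1 and 2. The region at Cdk2 and Pmel had 9, 9 and 7 for GATA6, and 8 and 16 in GATA4 replicates 1 and 3. In both, all 3 GATA6 libraries and 2 GATA4 libraries called the region, and the remaining GATA4 library did not.

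Members were spread over all autosomes. Chromosomes 8, 14 and 19, on which called regions of both factors are dense, carried 139 members (18.6%), although they hold 12.1% of protein-coding genes. The share was 28.2% for promoters in both lists (difference -9.53 points, -12.8 to -6.02) and 13.0% for GATA4-list-only promoters (5.60 points, 2.54 to 8.87). These chromosomes were picked for the density of the same calls, to which the promoters in both lists contribute, so the differences are a description with no test. The members' share lay between those of the other classes, and the first difference was -2.61 points with calls in 2 of 3 libraries.

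Per 100 protein-coding genes, there were 5.77 members on chromosome 8, 5.42 on chromosome 19, 4.48 on chromosome 18, 4.44 on chromosome 14 and 4.31 on chromosome 1. The other autosomes had between 2.43 and 3.54. The X chromosome had 5 members, or 0.527 per 100 genes, at Clcn5 (a chloride channel family gene), Snx12, Prdx4 (a peroxiredoxin), Bcap31 and Xlr3a, and the Y chromosome had none. These 5 were chosen for their chromosome after their values were seen. On chromosome 1, 10 members lay between 150 and 170 Mb, where called regions are crowded, among them Mgst3 and Xpr1.

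**Figure D5:**
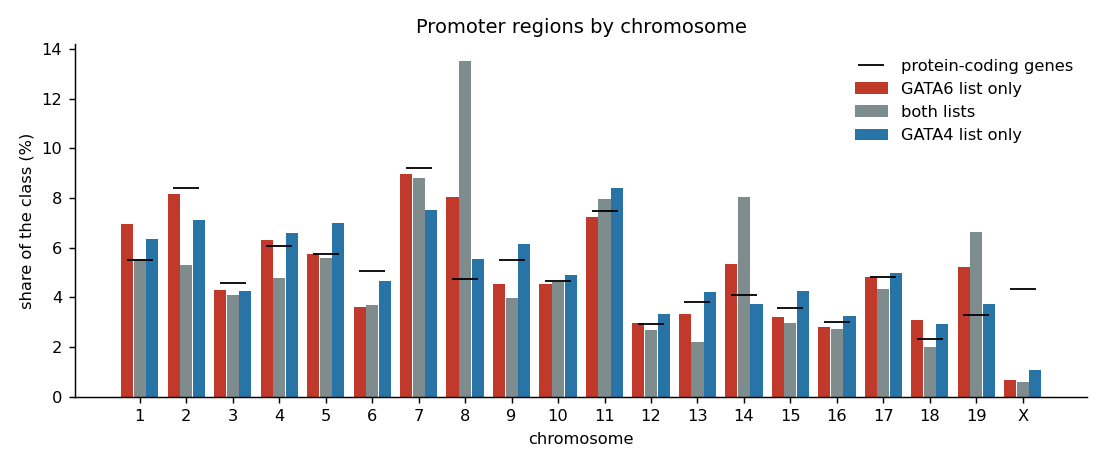
Percent of each class (y axis) on each chromosome (x axis) for members (red), promoter regions in both lists (grey) and GATA4-list-only promoter regions (blue), with black marks for the percent of protein-coding genes. On chromosomes 8, 14 and 19 the members lie between the other classes, and on X all 3 lie below the gene mark.

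The members lay within 1 kb of a TSS of 892 genes, 781 of them protein-coding and 111 lncRNA genes. The former were 3.56% of the 21938 protein-coding genes. Of the 892 genes, 56 (6.28%) also had a combined GATA4 region within 1 kb of a TSS. Members overlap no such region, so a low share follows in part from the rule and is a description. Over all protein-coding genes, 10.1% had a promoter region in both lists and 9.59% one of the GATA4 list alone. A pair of members each was found at Ido2, Myadm and Rnf123, chosen for this after their values were seen. The nearest gene was a lncRNA for 56 members, of which 35 were in at least 2 GATA4 lists.

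None of the 30 genes of the XEN and primitive endoderm list had a member at a TSS, whereas 11 had a promoter region in both lists and 4 one of the GATA4 list alone. Nor did any of the 8 genes for GATA factors and their FOG cofactors (1 with a region in both lists, 3 with one in the GATA4 list alone) or the 12 AP-1 genes (3 and 2). Over all protein-coding genes, the shares were 3.56% with a member, 10.1% with a promoter region in both lists and 9.59% with one of the GATA4 list alone. At 3.56%, few or no members fall on lists this short. The data are of binding, so the cell type itself was not checked by expression here.

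Of 27 pluripotency genes, 1 had a member, namely Klf2, a Krüppel-like factor of naive pluripotency. Its region at chr8:72318036-72319285 had maxima of 11, 4 and 4 fragments in GATA6 replicates 1, 2 and 3, and of 6 and 7 in GATA4 replicates 1 and 2. GATA6 replicate 1 was the high library for GATA6, and GATA4 replicate 3 made no call. A further 3 pluripotency genes had a promoter region in both lists and 3 one of the GATA4 list alone.

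Zinc finger genes named Zfp formed the longest list. Of 394 such genes, 29 (7.36%, 4.99 to 10.4) had a member, against 3.56% of all protein-coding genes, while 11.7% had a promoter region in both lists against 10.1% of all genes, and 9.14% one of the GATA4 list alone against 9.59%. Zfp genes are clustered and related in sequence, so they are not independent. The highest-ranking were Zfp94 (GATA6 maxima 11, 10 and 15), Zfp329 (9, 8 and 15), Zfp61 (15, 15 and 15), Zfp672 (6, 5 and 7), Zfp106, Zfp53 (12, 6 and 12), Zfp14 (9, 9 and 9) and Zfp882 (3, 4 and 5). Except for Zfp106, each was held by at least 1 GATA4 library, with maxima of 11 and 10 fragments in GATA4 replicates 1 and 2 at Zfp61.

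Lists of housekeeping functions had members at shares on either side of 3.56%, with no list above 9%. Of 85 cytosolic ribosomal protein genes, 1 had a member (Rpl36), while 10 had a promoter region in both lists and 13 one of the GATA4 list alone. Of 78 mitochondrial ribosomal protein genes, 4 did (Mrpl22, Mrpl39, Mrpl41 and Mrpl57), and of 84 oxidative phosphorylation genes, 2 (Cox7a2l and Atp5k). Of 37 aminoacyl-tRNA synthetase genes, which encode the enzymes that charge tRNAs, 3 did (Dars, Farsb and Mars). Of 39 proteasome genes, 3 did (Psmb1, Psmd1 and Psmd6).

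Among 57 genes for RNA polymerase and Mediator subunits, 3 had a member (Polr1d, Polr2e and Polr3gl), 19 a promoter region in both lists and 11 one of the GATA4 list alone. Among 45 DNA replication genes, 3 did, namely Mcm6, of the replicative helicase, Pola2, of DNA polymerase alpha, and Mcm4, whose member lay nearer to Prkdc on the opposite strand and was named after its values were seen. Of 70 translation factor genes 2 did (Eif2a and Eif3j1), of 59 splicing genes 1 (Lsm7) and of 53 cyclin and cyclin-dependent kinase genes 1 (Cdk2). None of 67 replication-dependent histone genes had a member (0%, with an upper limit of 5.36%, against 3.56% of all genes). Of these 67 genes, 20 (29.9%) had a GATA4-list-only promoter region, against 9.59% of all genes, and 9 (13.4%) one in both lists, against 10.1%. Like the Zfp genes, histone genes are clustered and not independent, and 1 region can count for several of them.

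The members at these genes were seldom exclusive to GATA6 in the library lists, as was so for all members, of which 54 of 746 (7.24%) were in no GATA4 list. Mcm6 had maxima of 10, 8 and 5 fragments for GATA6, and of 4 and 7 in GATA4 replicates 2 and 3. Polr2e had 9, 5 and 10 for GATA6, and 10 and 4 in GATA4 replicates 1 and 3. Rpl36 and Eif2a (5, 5 and 5 for GATA6) were the named members of the functional lists, Zfp genes aside, without any GATA4 call.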

How the data were processed

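The authors aligned paired-end 50-bp reads (30000000 per sample per the labels) to mm10 with bowtie2 2.3.4.1. They removed duplicates, mitochondrial and blacklisted reads and those with mapping quality under 20. Regions were called per library with SEACR 1.3 in stringent mode (threshold 0.01, no normalisation). An anti-IgG antibody is named among the CUT&RUN reagents, but the calls as described used a numeric threshold and not an IgG control. A fixed threshold of this kind keeps a set share of signal blocks, so a region can miss one list by little. The deposited library lists give total and maximum signal (fragment coverage), unscaled for depth, and the combined lists give positions only, with regions not present in all replicates discarded. The study's methods also name the line 3F6 and fewer replicates, and the labels were followed.

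Library lists held 42446 to 49597 regions. Merging the 3 lists of a factor and keeping regions called in all 3 rebuilt all 8282 GATA4 and 5170 GATA6 combined regions. Overlap meant at least 1 bp. TSSs of 21938 protein-coding and 13374 lncRNA genes came from GENCODE release M21, with all transcripts, and sequence from the GRCm38 (mm10) reference. Groups came from sample titles. Shares were compared by two-sided Fisher's exact tests with Benjamini-Hochberg adjustment over 10 comparisons (the 2 on chromosomes, picked for the density of the same calls, are given as differences only), with Newcombe intervals for differences and Clopper-Pearson intervals for shares. Features fixed by the calls were described without a test. Reads left per library are unknown, so depth is unknown.

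Genes were named by nearest TSS for the 12 members with the highest mean GATA6 percentile, the 12 highest in no GATA4 list, the 3 lowest, those nearest the limits of the rule, and up to 8 per gene list. Members, the 16 gene lists and the tests were chosen with earlier results of these data known. The code was tested on simulated data. Alternatives numbered 24. Fisher's test ran in scipy 1.17.1 and sequence access in pysam 0.24.0, under Python 3.11.15 with pandas 2.3.3, numpy 2.4.6 and matplotlib 3.10.9.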

Additional observations from a re-analysis of the deposited data

How the results depend on the processing

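Of 206 values recomputed under alternative settings, 172 kept their direction and side of the threshold, or moved little where no test was made. With calls in 2 of 3 libraries for both factors, there were 1204 members, 37.5% in no GATA4 list. Against promoters in both lists, the differences (percentage points, members minus others) then became -0.887 for WGATAR, -15.7 for CpG-island-like windows, -7.20 for upstream midpoints and -2.61 for chromosomes 8, 14 and 19, and against GATA4-list-only promoters -1.70 for opposite-strand TSSs. Leaving out each library in turn gave 561 to 1422 members, 13.9% to 20.1% in no remaining GATA4 list. Against promoters in both lists it gave -5.41 to -2.43 for WGATAR, -6.69 to -3.34 for CpG-island-like windows and -6.97 to -1.62 for upstream midpoints, and against GATA4-list-only promoters -6.74 to -2.90 for opposite-strand TSSs, -4.37 to -1.52 for upstream midpoints and -2.71 to 1.69 for CpG-island-like windows. That last difference, -0.355, also changed sign with promoters within 2500 bp (3.23), a base shared by all 3 lists (0.114), the CpG window at the TSS (0.709) and without chromosomes 8, 14 and 19 (2.27). Without those chromosomes the difference in CpG-island-like windows from promoters in both lists was 0.766. With lists of equal length, the upstream difference from GATA4-list-only promoters was -4.31 and passed the threshold. The WGATAR difference from GATA4-list-only promoters and the opposite-strand difference from promoters in both lists stayed past it throughout. Other causes of these shifts were not tested, beyond fewer libraries or regions entering. No paired analysis was possible because the tests compare regions of the combined lists, in which the libraries of a factor are already joined, and signal unscaled for depth was not tested between libraries. Stacks of few fragments limit how firmly a missing call can be read.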
